A study of Mus musculus with 146 samples.

Results

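The endoplasmic reticulum (ER) folding and stress genes described here are 34 listed genes, found by Ensembl identifier among the 22721 genes of the raw count table. All 34 were also among the 10893 genes of the variance-stabilised (VST) table. The list was sorted by role. It held 10 lumenal chaperones and cochaperones and 6 lectin chaperones and protein disulfide isomerases. A sensor group of 3 held the stress sensors Ern1 and Atf6 and, with them, the transcription factor Xbp1. The list also held 7 genes of ER-associated degradation and 8 genes of the translocon and of the first processing steps. The 34 genes were measured by RNA sequencing in 146 libraries of bone marrow-derived macrophages, 1 library per mouse. The mice were 60 male and 86 female outbred CFW mice (strain label Crl:CFW(SW)-US_P08) aged 16 weeks. Marrow cells had grown for 5 days in medium conditioned by L929 fibroblasts, which supplies macrophage colony-stimulating factor, and no stressor or other treatment was applied to either sex. CFW is an outbred stock, so the mice differ in genotype, and genotypes were not analysed here.

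Proteins destined for secretion, membranes or lysosomes enter the ER through the Sec61 translocon and lose their signal peptide to the signal peptidase complex. Many receive N-linked glycans from the oligosaccharyltransferase complex. In the lumen the Hsp70 chaperone BiP (Hspa5), its cochaperones and the Hsp90 protein Grp94 (Hsp90b1) assist folding, calnexin and calreticulin hold glycoproteins, and isomerases of the PDI family form disulfide bonds. Proteins that fail to fold are pulled back to the cytosol by the Sel1l and Syvn1 ubiquitin ligase complex and degraded. When unfolded proteins build up, the sensors Ire1 (Ern1), Atf6 and Perk start the unfolded protein response. Ire1 splices the messenger RNA of the transcription factor Xbp1, and cleaved Atf6 and spliced Xbp1 raise transcription of chaperone and degradation genes, in part through the ER stress response element (ERSE). A total count per gene does not tell spliced from unspliced Xbp1, nor cleaved from whole Atf6.

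Promoter sequences are shown for members whose levels are followed below, because the ERSE is the element through which Atf6 and Xbp1 are known to act on chaperone genes. RefSeq windows on build GRCm38.p6, from 250 bases before to 50 bases after a gene's start, were at hand for 26 of the 34 members. No window was given for Sil1, Manf, Hyou1, Atf6, Sec61a1, Derl1, Sec11c and Ostc. The ERSE was searched on both strands as the letters CCAAT, 9 bases of any kind and then CCACG. In each line the gene strand runs 5′ to 3′ and the capitals mark the match, which lies on the opposite strand for Hsp90b1 and Calr. All stretches end before the RefSeq gene start.
Hspa5, chr2:34771985-34772083, plus strand: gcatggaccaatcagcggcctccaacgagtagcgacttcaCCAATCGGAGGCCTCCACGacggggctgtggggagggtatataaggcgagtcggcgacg
Hsp90b1, chr10:86705493-86705591, minus strand: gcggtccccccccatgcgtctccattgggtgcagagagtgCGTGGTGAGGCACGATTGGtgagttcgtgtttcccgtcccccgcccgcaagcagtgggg
Calr, chr8:84847035-84847133, minus strand: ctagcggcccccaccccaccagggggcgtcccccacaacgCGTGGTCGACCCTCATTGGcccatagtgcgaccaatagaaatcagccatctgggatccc
Pdia6, chr12:17266451-17266549, plus strand: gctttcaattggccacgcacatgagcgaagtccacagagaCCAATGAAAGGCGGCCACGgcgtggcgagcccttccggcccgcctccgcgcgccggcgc
Syvn1, chr19:6046492-6046575, plus strand: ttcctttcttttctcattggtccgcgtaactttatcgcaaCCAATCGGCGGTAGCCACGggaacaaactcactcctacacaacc
Herpud1, chr8:94386337-94386427, plus strand: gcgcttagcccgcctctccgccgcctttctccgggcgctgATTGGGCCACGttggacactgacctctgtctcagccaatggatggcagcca

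The ERSE letters stood in 8 of the 26 member windows, a share of 30.8%, and in 37 of 27025 genes with a window, a share of 0.137%. These 37 include the 8 members. The list was made to hold chaperone genes, on which the ERSE is known to act, so the shares are a description and no test. The 8 members were Calr, Canx, Creld2, Dnajc3, Hsp90b1, Hspa5, Pdia6 and Syvn1, and Hsp90b1 held a second match further upstream. For Herpud1 the capitals mark the related element ERSE-II, searched on both strands as ATTGG, 1 base of any kind and then CCACG, which was also in the window of Dnajb11. No member window held both elements. ERSE-II occurred in 0.0444% of the genes with a window. The letters TGACGTGG, a binding element of Xbp1 and Atf6, were in none of the 26 member windows and in 0.714% of genes. A match is a description of the letters and not evidence that a factor binds there.

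Before the results, the libraries themselves: depth ran from 14.5 to 121 M counts, with a median of 43.8 M, and the members held 0.845% to 1.74% of the counts of a library. Plate 1 carried 6 libraries and each of the other 6 plates 22 to 24, and the mice carried 28 collection date labels, 4 to 9 of them on each plate. Y-linked counts went against the sex label in 6 libraries, 2 labelled male and 4 labelled female, so results on sex are given with and without them. Macrophage markers were high in every library, with at least 1352 CPM (counts per M counts of the library) of Csf1r, 1298 CPM of Cd68 and 438 CPM of Adgre1. Markers of other cells varied: the summed level of 9 granulocyte precursor genes ran from 75.5 to 1732 CPM, of 6 osteoclast genes from 42.2 to 307 CPM and of 5 dendritic cell genes from 14.7 to 126 CPM. Of the 8 B and plasma cell markers, Cd79b had 0.525 to 6.54 CPM and was at 0 in no library, while the other 7 were each at 0 in 30 to 82 libraries. In these bulk samples fewer cells of a type and less RNA per cell cannot be told apart.

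The main chaperones and isomerases were among the most abundant transcripts of these untreated macrophages, with Calr, P4hb, Hsp90b1, Hspa5 and Pdia3 at or above the 99.1 percentile of VST genes, while Atf6, Ern1 and Syvn1 lay at the 74.4, 65.5 and 60.2 percentile. Levels between genes were compared per length, as the median over the 146 libraries of RPKM, the reads per kb of exon and per M counts. Calr (calreticulin, ENSMUSG00000003814, chromosome 8, 84841850 to 84846934, GRCm38) was highest at 487 RPKM, and P4hb (protein disulfide isomerase itself) followed at 372. Hsp90b1 had 365, Hspa5 (ENSMUSG00000026864, chromosome 2, 34771970 to 34777547) 311, Pdia3, the isomerase partner of the lectin chaperones, 291 and Canx (calnexin) 201. Ssr3, a subunit of the translocon-associated complex, at 118 and Pdia6, an isomerase that also acts on the sensors, at 111 completed the 8 members over 100. The median of all 10832 VST genes with a length was 7.91, and even the lowest member, Sil1, lay at 7.96. The 10th to 90th percentile ranges over libraries overlapped between most neighbours in this order. The order of genes inside single libraries was not examined.

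**Figure D1:**
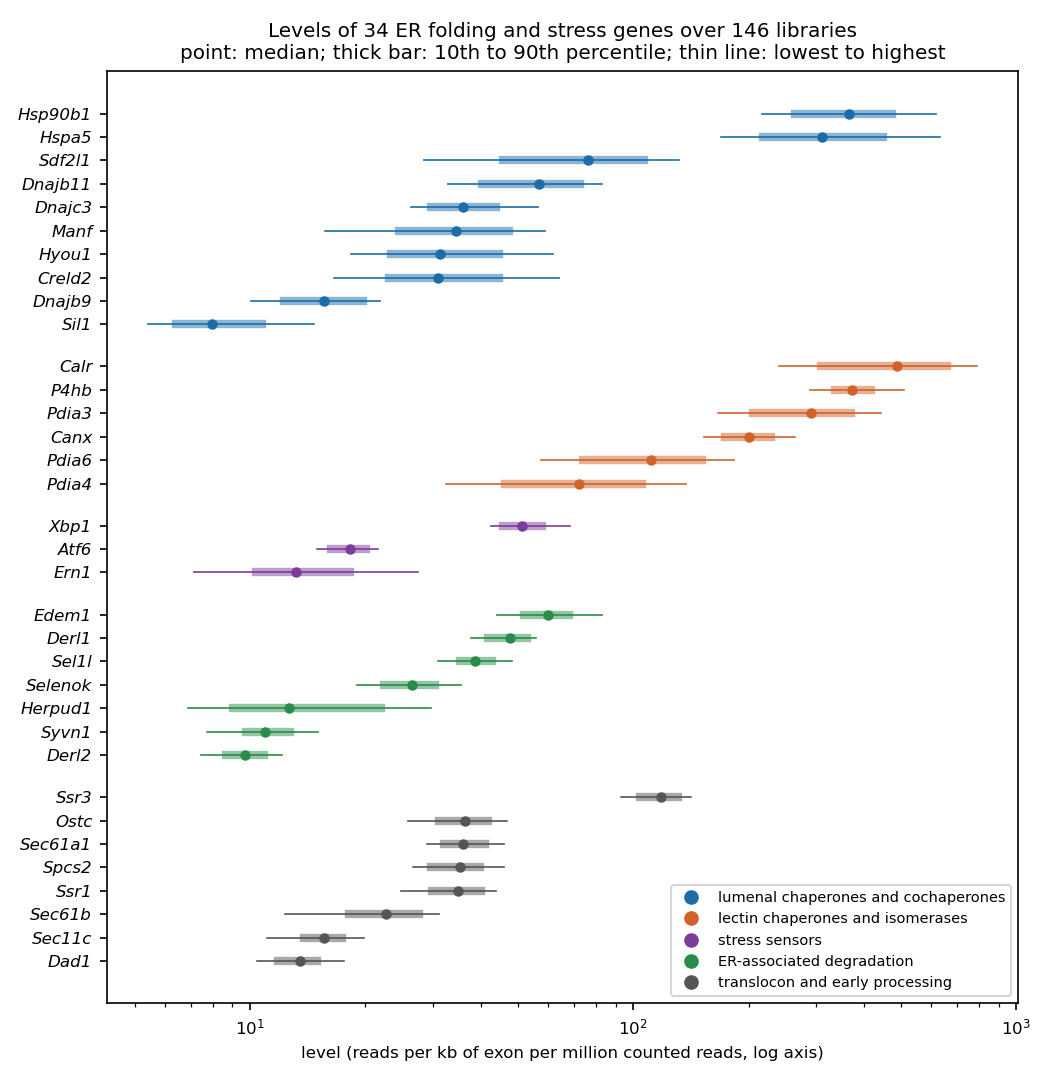
Level per length of each member over 146 libraries, in RPKM on a log axis, grouped and coloured by role. Points are medians, thick bars run from the 10th to the 90th percentile and thin lines from the lowest to the highest library; Calr at 487 is highest and Sil1 at 7.96 lowest.

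Among the other lumenal proteins, the BiP partners had very different levels. Sdf2l1, which joins the BiP and Dnajb11 cycle, had a median of 76.2 RPKM, and Dnajb11, a cochaperone that hands clients to BiP, 56.6. Dnajc3 (p58IPK), another cochaperone, had 35.9, Manf, a secreted BiP-binding protein, 34.4, Hyou1 (Grp170), a nucleotide exchange factor of BiP, 31.4 and Creld2, a resident ER protein induced by stress, 30.9. Dnajb9, a cochaperone that represses Ire1, had 15.6, and Sil1, the second exchange factor of BiP, 7.96. Hyou1 was thus higher than Sil1 per length, and their ranges over libraries, 18.4 to 61.8 and 5.43 to 14.7, did not overlap.

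Of the sensor group, Xbp1 had a median of 51.3 RPKM, Atf6 18.2 and Ern1 13.2. In the degradation group Edem1, a mannosidase-like protein that delivers glycoproteins, had 59.8, and Derl1, a membrane protein of the retrotranslocation complex, 47.6. Sel1l, the adaptor of the ligase complex, had 38.6 and Syvn1, its ligase, 10.9. Selenok, a selenoprotein that binds derlins, had 26.5, Herpud1, a scaffold of the complex, 12.6 and Derl2 9.69. The remaining translocon and processing genes lay close together. Ostc, an oligosaccharyltransferase subunit, had 36.4, Sec61a1, the pore subunit, 35.9, Spcs2, a signal peptidase subunit, 35.3 and Ssr1, of the same complex as Ssr3, 34.98. Sec61b had 22.7, the signal peptidase subunit Sec11c 15.6 and the oligosaccharyltransferase subunit Dad1 13.5.

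As groups, the chaperones and isomerases also varied most from library to library. Differences between plates, collection dates and sexes were left in these values. Spread was measured by dividing the 90th percentile of CPM by the 10th, which gave 1.41 for the median VST gene. Herpud1 was the most spread member at 2.44, followed by Sdf2l1 at 2.33, Pdia4, a further isomerase, at 2.28, Calr at 2.12, Hspa5 at 2.05 and Pdia6 at 2.05. The lumenal group had a median ratio of 1.86 and the lectin and isomerase group of 1.92, against 1.26 for the sensors, 1.31 for degradation and 1.31 for the translocon group. Within these groups there were exceptions. P4hb (1.24) and Canx (1.32) were abundant yet steady, Ern1 (1.76) was spread among the sensors, and Herpud1 stood alone among the degradation genes, where Sel1l was lowest of all members at 1.22.

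In single libraries Hspa5 ran from 718 to 2666 CPM with a median of 1313 CPM. Sdf2l1 ran from 31.5 to 146 CPM (median 84.4), Herpud1 from 16.1 to 69.2 CPM (median 29.4) and Ern1 from 58.4 to 224 CPM (median 108). Xbp1, in contrast, stayed between 138 and 223 CPM with a median of 167 CPM. Atf6 had the narrowest full range of the 34 members, from 138 to 199 CPM with a median of 168 CPM. The rank correlation of members with library depth, after removal of plate and sex, stayed within 0.242 of 0.

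The members fell into a tight block of chaperones and isomerases, looser attachments to it, and a small set that ran against it. Pairs were compared by Spearman's rho over the 146 libraries on VST values with plate and sex removed. Of the 561 member pairs 172 had a rho over 0.5, a share of 30.7%, where 2.46% of all pairs of VST genes did. A rho under -0.5 was found for 21 member pairs, a share of 3.74% beside 2.18% of all pairs. By permutation of libraries within plate, 368 pairs were positively and 79 negatively correlated at an adjusted p under 0.05 over the 561 pairs. This test was not run on pairs of other genes, so these counts have no background and mark no trait of the members. Mice of the same date may be alike, and the permutations did not allow for that.

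**Figure D2:**
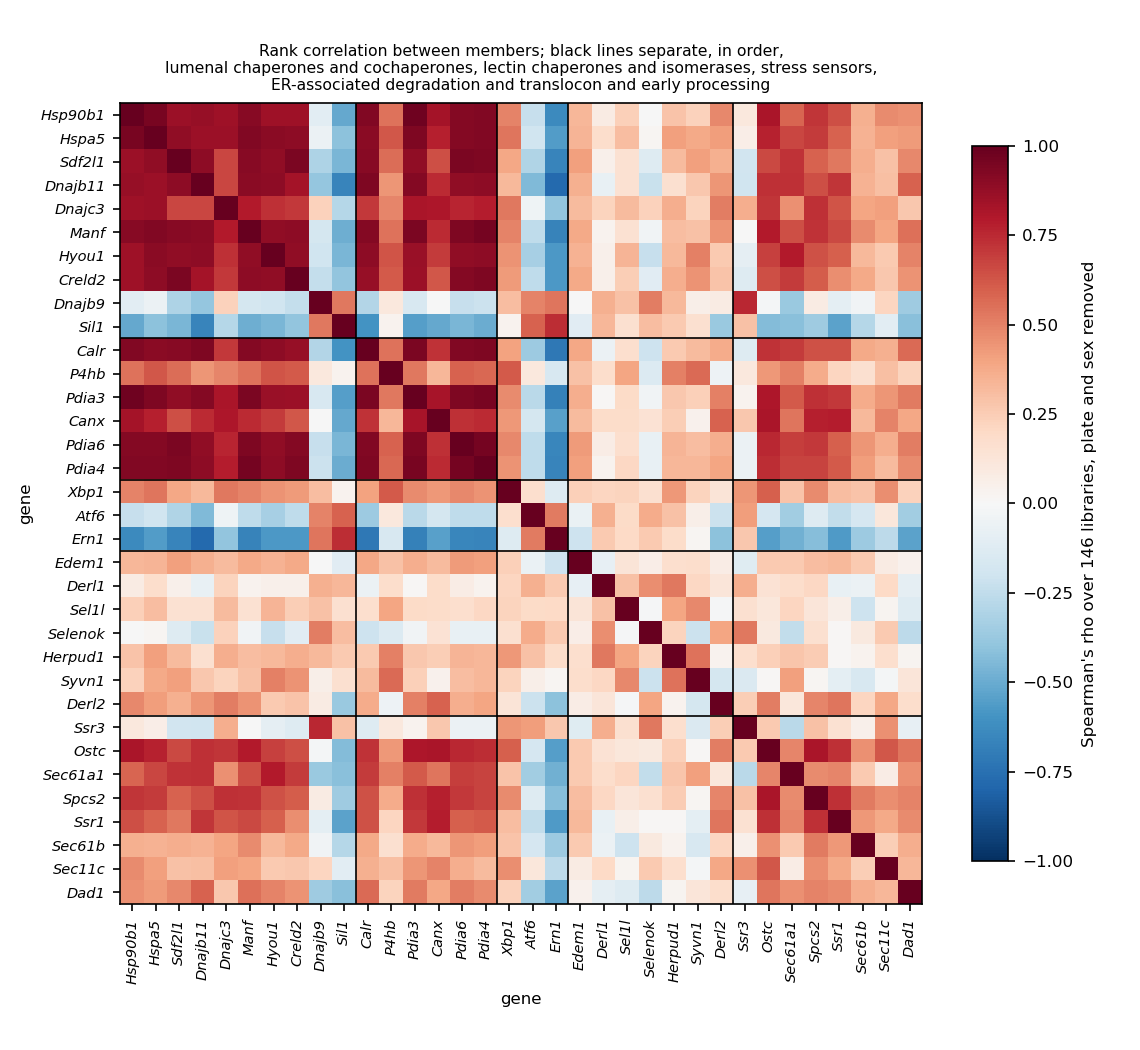
Spearman's rho of each pair of the 34 members over 146 libraries, plate and sex removed, with red for positive and blue for negative values. In the top left block of chaperones and isomerases the 12 core genes are red with each other. Sil1 and Dnajb9 lie in the same block, Sil1 blue with all 12 core genes and Dnajb9 with 11. Ern1 and Atf6, in the sensor group, are also blue with all 12.

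The highest pair was Hsp90b1 with Pdia3, at a rho of 0.973 and a Pearson r of 0.973. Pdia4 with Pdia6 had a rho of 0.961 (r 0.959), Manf with Pdia4 0.954 (r 0.954), Hspa5 with Hsp90b1 0.951 (r 0.961) and Pdia3 with Pdia4 0.947 (r 0.950). Each of these 5 pairs reached 1e-05, the smallest permutation p that 100000 resamples can give, with an adjusted p of 1.98e-05. Without the 2 libraries farthest from the median of the first gene, r was 0.949 to 0.971. Within the 6 plates of 22 to 24 libraries, rho of these pairs ran from 0.816 to 0.993. The correlated genes thus spanned an Hsp70, an Hsp90, a BiP-binding secreted protein and 3 isomerases.

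Inside the roles, the lumenal group had a median rho of 0.834 and 29 of its 45 pairs over 0.5, and the lectin and isomerase group a median of 0.749 with 14 of 15. Pairs between these 2 groups had a median of 0.810. The translocon group was looser at 0.455 with 6 of 28, and its highest pair was Spcs2 with Ostc at 0.814 (r 0.838, adjusted permutation p = 1.98e-05), 0.681 to 0.900 within plates. The degradation genes had a median of 0.169 with 2 of 21, and the sensors of 0.171. The highest degradation pair, Herpud1 with its ligase partner Syvn1, had 0.546 (r 0.531, adjusted permutation p = 1.98e-05), 0.438 to 0.678 within plates. Of the 3 sensor pairs, 1 was over 0.5, Atf6 with Ern1 at 0.519 (r 0.522, adjusted permutation p = 1.98e-05), 0.211 to 0.647 within plates. Leaving out the 2 farthest libraries gave an r of 0.839, 0.535 and 0.531 for the 3 pairs named here.

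A core was marked out after the values were seen. It held 12 genes, namely the lumenal group without Dnajb9 and Sil1, and Calr, Pdia3, Pdia4 and Pdia6. All 66 of its pairs had a rho from 0.667 to 0.973. Other members were placed by their median rho with these 12 genes. Canx had 0.744, Ostc 0.735, Spcs2 0.690, Sec61a1 0.683, Ssr1 0.621 and P4hb 0.552. Dad1 had 0.486, Xbp1 0.463 and Derl2 0.409. Sec61b had 0.374, Edem1 0.372, Sec11c 0.361, Herpud1 0.319, Syvn1 0.312 and Sel1l 0.2005, and Derl1 (0.0493), Ssr3 (-0.0578) and Selenok (-0.0722) were near 0. No degradation gene reached a median of 0.5 with the core, where 4 of the 8 translocon and processing genes did.

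Ern1, which encodes the sensor Ire1, was lower where the core was higher. Its lowest pairs were Dnajb11 at -0.780 (r -0.788), Calr at -0.716 (r -0.727) and Pdia3 at -0.678 (r -0.682), each at the smallest permutation p of 1e-05 and an adjusted p of 1.98e-05. Without the 2 farthest libraries r was -0.775, -0.710 and -0.680. Within plates the 3 pairs ran from -0.837 to -0.517, so the direction was the same on each of the 6 plates. Sil1 and Atf6 were also negative with all 12 core genes, with median rho of -0.475 and -0.256, and Dnajb9 with 11 of 12 (median -0.208). These 4 genes were positively correlated with each other, from 0.497 to 0.741, with Sil1 and Ern1 highest. Dnajb9 had its closest member in Ssr3, at 0.756.

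**Figure D3:**
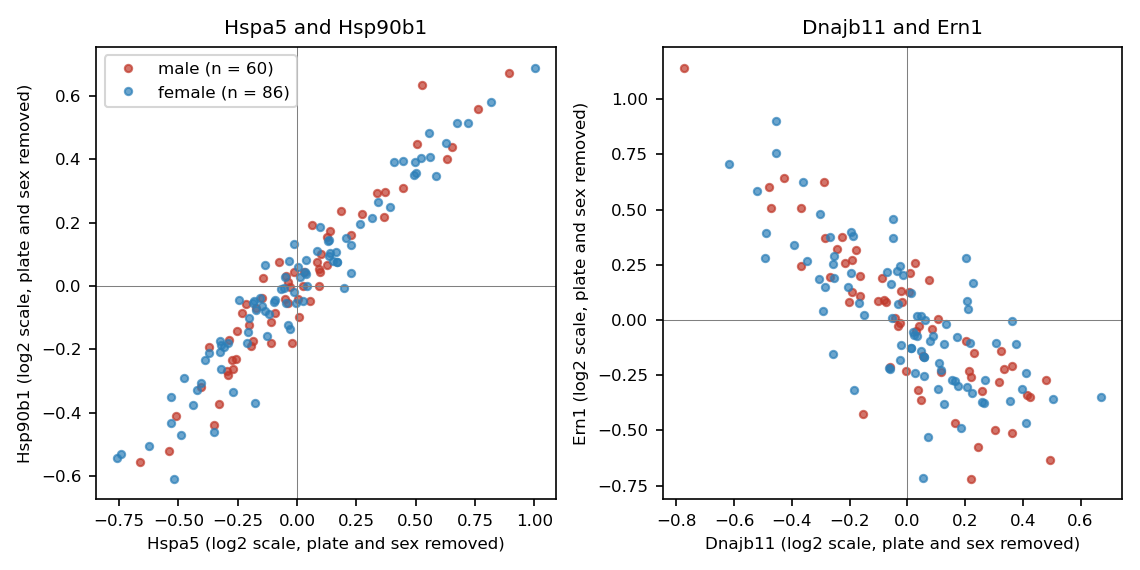
VST values with plate and sex removed (log2 scale, 0 is the mean) of Hspa5 against Hsp90b1, left, and of Dnajb11 against Ern1, right, for 60 male and 86 female libraries. The left cloud rises along a narrow line (rho 0.951) and the right one falls (rho -0.780).

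The opposition of Ern1 to the core moved with the main axis of variation of all genes. The first principal component of the VST genes, after plate and sex, held 25.9% of their variance. Signed so that Hspa5 is positive on it, its rho was -0.817 with Ern1, -0.802 with Sil1 and 0.862 with Dnajb11, against 0.585 with Hspa5, 0.0131 with Xbp1 and -0.0696 with Herpud1. With this component removed, Dnajb11 with Ern1 had a rho of -0.192, Calr with Ern1 -0.202 and Pdia3 with Ern1 -0.165. The medians against the core became 0.156 for Sil1, 0.256 for Atf6 and 0.367 for Dnajb9, so their direction turned, and -0.171 for Ern1. The 66 core pairs stayed between 0.587 and 0.955, and Xbp1 came closer to the core, with a median of 0.671. Of all member pairs 169 were then over 0.5 and 0 under -0.5, where 21 had been, and negative pairs numbered 59 in place of 126. The shares over all pairs of VST genes were not computed with the component removed, so these counts have no background. The 6 pairs among Ern1, Sil1, Dnajb9 and Atf6 then ran from 0.106 to 0.292.

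Levels of markers of other cells moved with the same axis. The component had a rho of -0.805 with the summed level of the osteoclast markers, -0.770 with the dendritic cell markers, -0.772 with the B and plasma cell markers, -0.537 with the granulocyte precursor markers and 0.0301 with the macrophage markers. Ern1 itself had a rho of 0.681 with the dendritic list and 0.617 with the osteoclast list, and Hspa5 of -0.448 and -0.542. The granulocyte list had -0.122 with Hspa5. The dendritic sum was mostly Itgax (median 23.7 CPM), which macrophages also express, while Zbtb46 had a median of 0.768 CPM. The B and plasma cell sum was mostly Cd79b (median 2.08 CPM), and the macrophage sum mostly Lyz2 (median 9571 CPM). The part of these cells in the correlations was not tested.

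Genes that vary with Hspa5 were then sought among all 10892 other VST genes in a limma model that also held plate and sex. Hspa5 followed a broad axis: 29.6% of genes were positively and 30.8% negatively associated at an adjusted p under 0.05. Of the other 33 members 27 were positive and 2, Ern1 and Sil1, negative. Dnajb9, Atf6, Ssr3 and Selenok did not pass. Counts of members are therefore to be read against a wide background. With the first principal component as covariate, 5.70% of genes were positive and 6.00% negative, and of the members 28 were positive and none negative. The members that did not pass there were Ern1, Sil1, Derl2, Dad1 and Sec61b.

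Outside the members, the genes closest to Hspa5 were again mostly of the secretory pathway. Rpn1, a subunit of the oligosaccharyltransferase, had a rho of 0.856 and rose by 0.16 ± 0.01 (SE) on the log2 scale per SD of Hspa5 (limma adjusted p = 1.24e-36). Slc35b1, the transporter that brings ATP into the ER, had 0.817. Hdlbp (vigilin), an RNA-binding protein, had 0.776, Nucb2, a calcium-binding protein, 0.772 and Mlec (malectin), a lectin of the ER, 0.763. Isyna1, inositol phosphate synthase, had 0.716, Rpn2 0.715, the galectin Lgals9 0.702 and Uggt1, the sensor of glycoprotein folding, 0.697. At the other end were Serinc5, a membrane protein, at -0.711, the centromeric histone Cenpa at -0.704, the histone H2afv at -0.679, Rbm12 (uncertain, 33.1% of 50-mers shared with other genes) at -0.656 and Cdk20 at -0.647. All 14 genes named here passed at an adjusted p of 1.21e-14 or lower, and all 14 kept their direction and their call with the first principal component as covariate.

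Lists of related genes, chosen with earlier results of these data known, gave this picture beside the 29.6% and 30.8% of all genes. In the VST table were 17 further folding genes, of which 10 were positive and 1 negative with Hspa5, among them Ppib, a prolyl isomerase (rho 0.629), Txndc11 (0.668) and Txndc5 (0.615). Of 21 further translocon and glycosylation genes 13 were positive and 1 negative, with Ddost at 0.689 and Stt3a at 0.637, both of the oligosaccharyltransferase. Of 17 genes of transport between ER and Golgi 12 were positive and 1 negative, with the cargo receptor Surf4 at 0.676 and the coat proteins Sec31a at 0.606, Sec13 at 0.580 and Sec23b at 0.576. Of 15 further degradation genes only 3 were positive and 5 negative, with Selenos at 0.614 and Vcp, the segregase, at 0.539, against the ligase Rnf139 at -0.442 and Ube2g2 at -0.386. Counts of Ppib, Vcp and Rnf139 are uncertain, with 30.8%, 43.6% and 24.9% of their 50-mers shared with other genes. The median rho was 0.397, 0.371, 0.395 and -0.0225 for these 4 lists.

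Of 13 genes of the arm of the stress response that runs through Perk and Atf4, 4 were positive and 1 negative with Hspa5, at a median rho of -0.0507. Asns, asparagine synthetase, had 0.334, the pseudokinase Trib3 0.222, Ddit3 (Chop), the stress-linked transcription factor, 0.175 and Cebpb -0.248. Ddit3 had a median of 15.2 CPM, and Atf4 of 269.9 CPM, over the libraries. Of 7 further sensors and processing genes 3 were positive and 1 negative, with the largest sizes of rho at -0.288 for the protease Mbtps2 (uncertain, 28.9% of 50-mers shared), 0.278 for Atf6b, 0.255 for Creb3l2 and 0.247 for Creb3. With the first principal component as covariate, the rho of Ddit3 was 0.496 and that of Trib3 0.392.

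Of the cytosolic and mitochondrial chaperones, 4 of 10 were positive and 2 negative, with Hsp90aa1 at 0.465 and Hspd1 at 0.431 against Hspa8 at -0.515 and Bag3 at -0.425. Counts of Hsp90aa1, Hspd1 and Hspa8 are uncertain, as 47.5%, 42.1% and 39.4% of their 50-mers are shared with other genes. Of 16 cholesterol synthesis genes, 12 were positive and none negative, at a median rho of 0.284, with Fdft1 at 0.385, Nsdhl at 0.360, Fdps at 0.331 and Cyp51 at 0.306. With the first principal component as covariate these 4 had 0.0811, 0.0638, 0.0908 and 0.0285, and none passed. Counts of Fdft1 and Fdps are uncertain (26.5% and 26.2% of 50-mers shared). Of 12 mitosis genes 2 were positive and 3 negative, with Bub1 at 0.422, Cdc20 at -0.344, Aurka at -0.187 and Ccnb1 (uncertain, 23.4% shared) at -0.171. Of 7 macrophage genes 3 were positive (Mertk 0.377, Csf1r 0.276, Fcgr1 0.1998) and 1 negative (Itgam -0.539, counts uncertain because 66.3% of its 50-mers are shared).

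All 5 osteoclast markers in the VST table were negative with Hspa5, Atp6v0d2 most at -0.566, then Mmp9 at -0.354, Acp5 at -0.285 and Ctsk at -0.271. Both dendritic markers were negative as well, Itgax at -0.490 and Flt3 at -0.268, as were Cd79b at -0.420 and 5 of 8 granulocyte precursor genes, with Elane at -0.176, S100a9 at -0.174, Prtn3 at -0.172 and Ctsg at -0.168. With the component as covariate S100a9 (0.291) and Flt3 (0.265) turned positive, and the other named markers did not pass. The 8 genes of the B and plasma list gave 1 VST gene, and stromal and T cell markers gave none.

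Members with an ERSE in the window had a median rho of 0.893 with Hspa5, from 0.382 for Syvn1 to 0.951 for Hsp90b1, and all 7 beside Hspa5 itself were positive. The 18 other members with a window and no ERSE had a median of 0.425, with 14 positive and 1 negative. Of all 8616 VST genes with a window, 2542 were positive and 2661 negative, at a median of -0.0122. Pdia3 and Pdia4, whose windows lacked the letters, had 0.933 and 0.927. Outside the members 29 genes had an ERSE in the window, of which 5 were in the VST table. Their rho was 0.386 for Alg12, 0.307 for Hnrnpa3, -0.0104 for Acacb, -0.299 for Adcy3 and -0.371 for Pan2. These 5 genes thus had both directions.

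Xbp1, Syvn1 and Sec61a1 were used in the same way as Hspa5, to take in the transcription factor of the sensor group, a degradation gene and a translocon gene. Xbp1 was positively associated with 27 members and negatively with none, where 7.51% of all genes were positive and 9.05% negative. Its closest members were P4hb at a rho of 0.610 and Ostc at 0.5999, and Hspa5 had 0.533, while Ern1, whose product splices its RNA, had -0.133 and did not pass (adjusted p = 0.415). The nearest genes outside were Nucb2 (0.629), Ppib (uncertain, as above, 0.6003), Hdlbp (0.586), the thioredoxin-like Erp44 (0.578) and Tmem50b (0.553). Nucb2 and Hdlbp were thus near both Xbp1 and Hspa5. Xbp1 lay at 0.0131 on the first principal component.

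Syvn1 was positive with 18 members and negative with 2, Derl2 and Selenok, where 17.5% of all genes were positive and 20.1% negative. Its nearest members were P4hb (0.565), Herpud1 (0.546), Hyou1 (0.503) and Sel1l (0.484). The nearest genes outside were Atxn2l (0.607), Prkcsh, a glucosidase II subunit (0.594), Mbd6 (0.590), Creld1 (0.587) and Bag6, a handler of misplaced membrane proteins (0.582). Sec61a1 was positive with 24 members and negative with 6, where 31.6% of genes were positive and 32.5% negative. Hyou1 was its nearest member at 0.795. The negative members were Dnajb9, Sil1, Ern1, Atf6, Ssr3 and Selenok. The nearest genes outside were Rpn1 (0.788), the tRNA synthetase subunit Farsa (0.783), the initiation factor Eif3b (0.770), the splicing factor U2af2 (0.770) and Mybbp1a (0.767).

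Plate was associated with nearly all members. By edgeR's quasi-likelihood test over 6 plate coefficients, 30 of the 34 members passed at an adjusted p under 0.05, beside 74.8% of all genes tested. Atf6, Edem1, Sec11c and Xbp1 did not pass. Plate explained a median of 18.5% of the VST variance of the members, from 5.78% for Sec11c to 36.7% for Ostc, beside 15.6% for the median gene. The mean of Hspa5 was highest on plate 7, at 1556 ± 321 CPM, and lowest on plate 8, at 1128 ± 280 CPM (SD, n = 23 each). Single libraries of these plates overlapped, from 1010 to 2201 CPM and from 787 to 1901 CPM. The labels give the plate also as a batch, without saying which step it stands for, and plates hold different collection dates, so the 2 cannot be fully told apart.

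Collection date added to plate. Within plates 26 of the 34 members differed between date labels by edgeR's test, beside 69.1% of all genes, and 25 did without the 6 libraries that go against their label, beside 65.8% of all genes. All 7 degradation genes and all 3 genes of the sensor group passed. Dnajb9, Sil1, Canx, Sec61a1, Sec61b, Ssr3, Sec11c and Spcs2 did not. With only the labels of at least 4 libraries on a plate, 18 members passed, beside 57.2% of all genes. Plate and date together explained a median of 49.8% of the members' variance, beside 45.5% for the median gene. The share was highest for Herpud1 at 68.1%, then Derl1 at 63.8%, while for Xbp1 it was 56.5%, although plate alone explained 6.42%.

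Herpud1 gave the clearest date pattern. The 10 mice labelled 14/04/2011, all on plate 7, had 44.1 to 66.9 CPM with a median of 52.8 CPM, against 17.9 to 51.4 CPM with a median of 32.4 CPM in the other 13 libraries of that plate. The 3 mice labelled 18/05/2011, all on plate 10, had 52.7, 54.1 and 69.2 CPM, against 19.5 to 43.98 CPM in the other 21 libraries there. The ranges overlapped slightly on plate 7 and not on plate 10. The test over dates within plates gave Herpud1 an adjusted p of 7.16e-10 (edgeR). These labels were picked out after the values were seen, and so carry no test of their own.

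**Figure D4:**
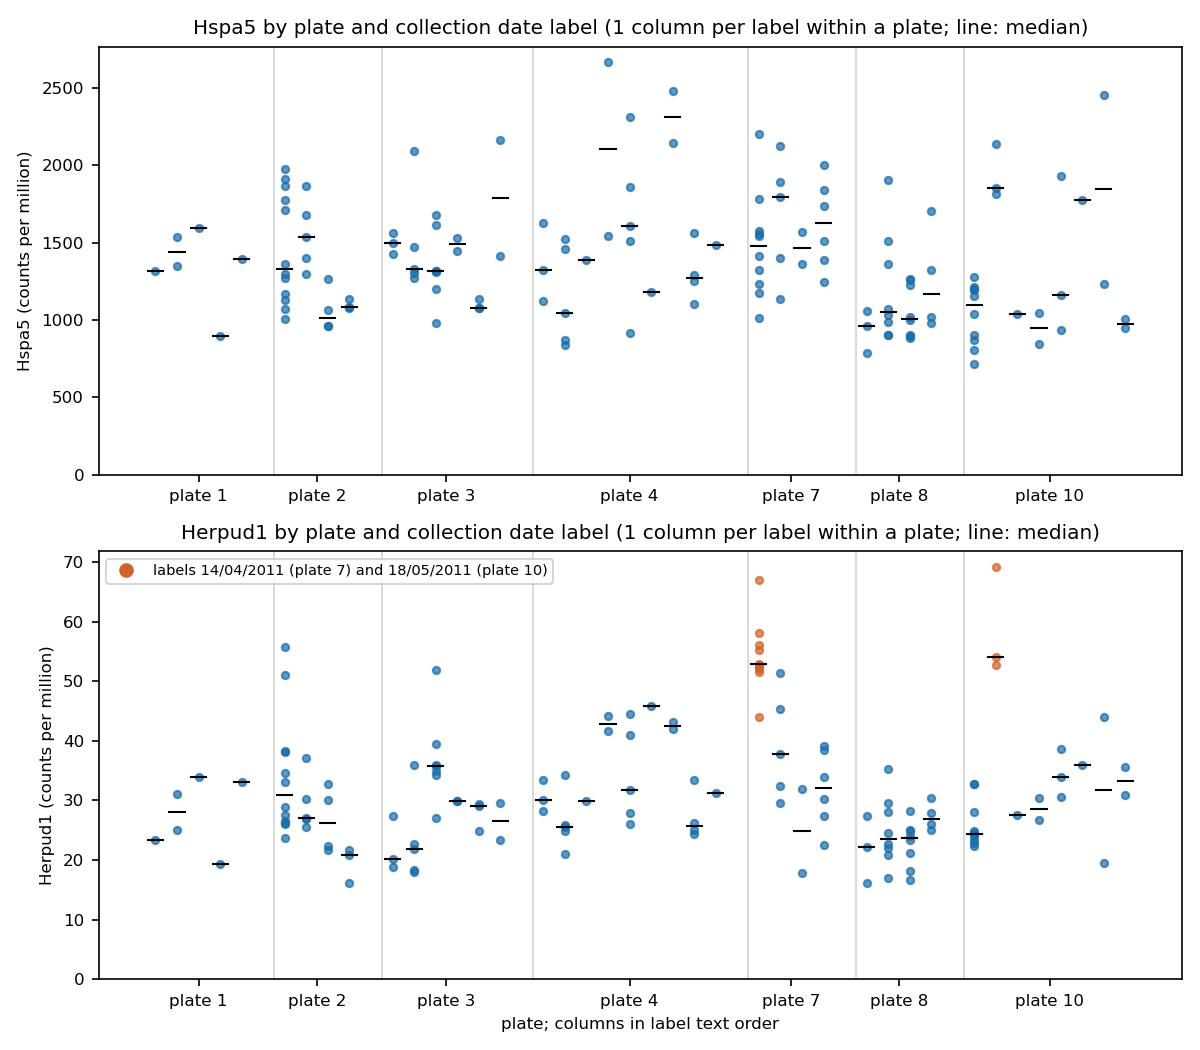
Hspa5, top, and Herpud1, bottom, in CPM for each library, in columns by collection date label within each plate, with a line at the median of each column. Orange points mark the labels 14/04/2011 and 18/05/2011, where Herpud1 lay at 44.1 to 69.2 CPM. Hspa5 on the label 14/04/2011 ran from 1010 to 2201 CPM, beside 1132 to 2125 CPM in the rest of its plate.

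Other members did not share that pattern in full. On the label 14/04/2011 Hspa5 had 1010 to 2201 CPM, against 1132 to 2125 CPM in the rest of plate 7, and Xbp1 had 141 to 174 CPM, against 158 to 188 CPM. On the label 18/05/2011 Xbp1 had 211, 215 and 223 CPM, against 138 to 208 CPM in the rest of plate 10. Hspa5 had 1812, 1850 and 2133 CPM there, within the 718 to 2455 CPM of the rest but above their median of 1048 CPM. Syvn1 on that label had 62.3 to 69.5 CPM, within the 46.7 to 73.3 CPM of the rest. Its median was 66.5 CPM, against 53.2 CPM in the rest. So Herpud1 was high on both labels, and Xbp1 was high on the second alone. On the second label Hspa5 and Syvn1 also had higher medians than the rest, with overlapping ranges. Xbp1 had an adjusted p of 1.52e-08 over dates within plates (edgeR).

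Over the 17 labels with at least 4 libraries, the highest date median was 1.15 to 2.79 times the lowest, with a median over members of 1.36 times. Sdf2l1 had the widest gap, with 72.9 to 125 CPM on the label 2011-07-04 (median 113, n = 6) against 31.5 to 65.5 CPM on the label 22/07/2010 (median 40.4, n = 5). Pdia4 had 172 to 254 CPM against 81.1 to 130 CPM on the same labels. The label 22/07/2010 was the lowest for 13 members, and the label 2011-07-04 the highest for 12. No such count was made over all genes. Most core genes are among the 13, and they are correlated, so they are not independent of each other. Ern1 went the other way, with its highest median on 22/07/2010, at 133 to 191 CPM. These date medians were not adjusted for plate or sex. All libraries labelled 2011-07-04 were of females on plate 7. Those labelled 22/07/2010 were of both sexes on plates 1 and 2. Date, plate and sex can therefore not be told apart in the comparison of these labels.

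Sex differences were small and, where they passed, lower in males. By edgeR's test with plate in the model, 8 of the 34 members were lower in males and none higher, beside 5.02% of all genes that passed, 2.84% lower in males and 2.17% higher. Mean Spcs2 was 142 ± 14.7 CPM over the 60 males, against 153 ± 17.1 CPM over the 86 females (SD). The log2 fold change, male over female, was -0.10 ± 0.02 (SE, edgeR adjusted p = 0.00116). The lowest, median and highest library of Spcs2 had 115, 140 and 175 CPM in males and 112, 157 and 194 CPM in females. The groups thus overlapped over nearly their whole range.

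The 4 called translocon and processing genes were Spcs2, Sec61a1 (-0.07 ± 0.02, SE, adjusted p = 0.0109), Ssr1 (-0.08 ± 0.02, adjusted p = 0.0143) and Sec61b (-0.12 ± 0.03, adjusted p = 0.0228). Edem1 of the degradation group had -0.09 ± 0.02 (adjusted p = 0.0148). Among chaperones and isomerases Pdia6 had -0.18 ± 0.06 (adjusted p = 0.0301), P4hb -0.07 ± 0.02 (adjusted p = 0.0382) and Manf -0.17 ± 0.06 (adjusted p = 0.0493). Pdia6 had 216, 372 and 582 CPM as its lowest, median and highest library in males and 234, 457 and 687 CPM in females. Manf had 55.4, 109 and 174 CPM in males and 68.8, 131 and 207 CPM in females. On single plates the mean difference was below 0 on all 7 plates for each of the 8 genes except Sec61b, which was below 0 on 6. The 8 genes were called on these same libraries, so the plates are no independent support. Of all 34 members, 19 were below 0 on all 7 plates. The same count was not made over all genes, and many members are correlated with each other.

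**Figure D5:**
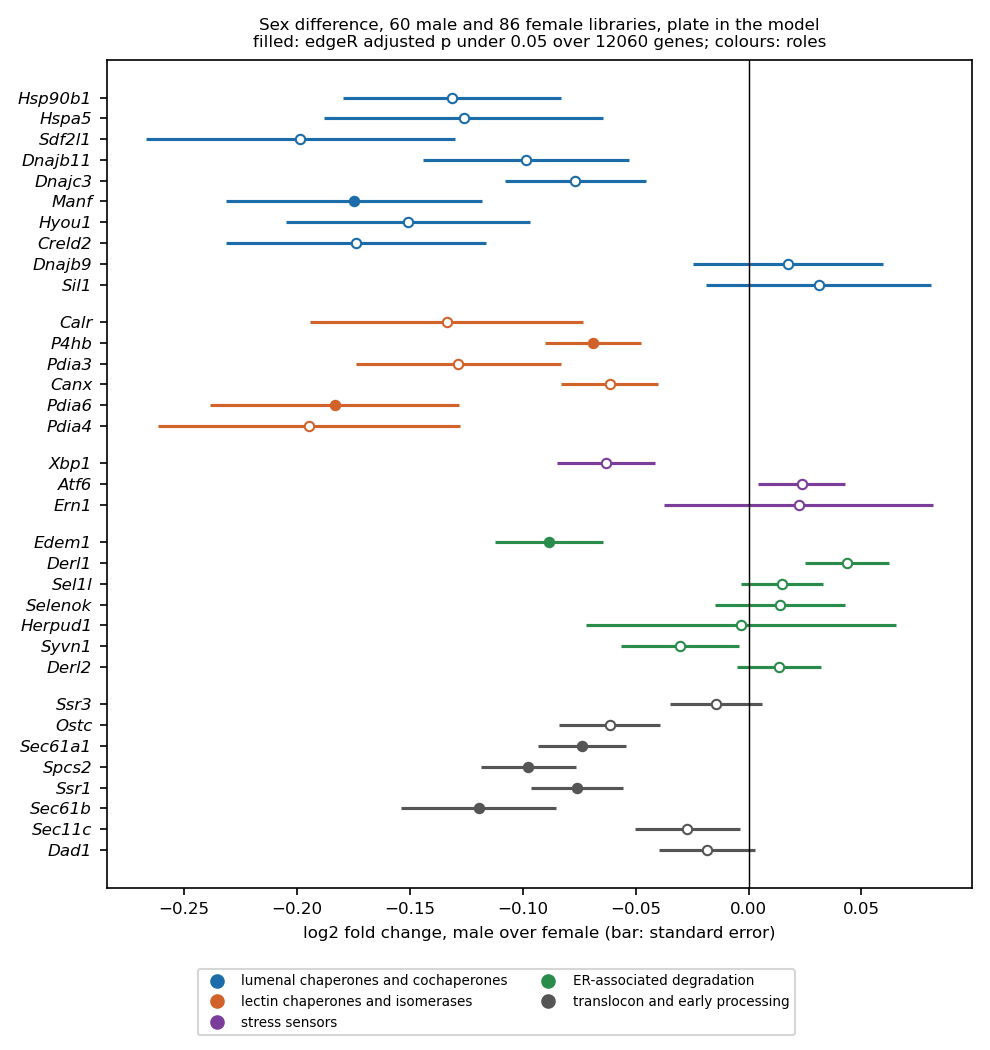
Log2 fold change, male over female, of each member with its standard error, from 60 male and 86 female libraries with plate in the model, grouped and coloured by role. Filled points mark the 8 members with an edgeR adjusted p under 0.05, from -0.18 for Pdia6 to -0.07 for P4hb; 26 of the 34 points lie below 0.

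Hspa5 itself did not pass, with 839, 1233 and 2314 CPM as its lowest, median and highest library in males and 718, 1404 and 2666 CPM in females. Its log2 fold change was -0.13 ± 0.06 (SE, edgeR adjusted p = 0.232). Sdf2l1 (-0.20 ± 0.07), Pdia4 (-0.19 ± 0.07) and Creld2 (-0.17 ± 0.06) had the 3 estimates farthest from 0 among those that did not pass. In all 26 of the 34 estimates were below 0 and their median was -0.07, beside 0.00 for all genes. The core genes are correlated, so these estimates are not independent of each other. Herpud1 (-0.00 ± 0.07), Ern1 (0.02 ± 0.06) and Sil1 (0.03 ± 0.05) had estimates near 0. A test of whether the sex difference varied between plates called 0.0415% of genes and no member, with no member at an unadjusted p under 0.05.

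The count for sex depended on which libraries were used. Without the 6 libraries that go against their label, 17 members were lower in males and none higher, beside 4.21% of all genes lower in males. The 9 added were Xbp1, Pdia3, Ostc, Creld2, Canx, Pdia4, Hyou1, Sdf2l1 and Hsp90b1. Without plate 1, 3, 4, 7 or 8 the count was 5, 4, 1, 3 and 3, beside 2.04%, 1.8%, 1.31%, 1.47% and 2.37% of all genes lower in males, and Spcs2 passed each time. The ranges of summed marker levels overlapped between the sexes: the osteoclast list had a median of 84.1 CPM in males (44.95 to 307) and 76.3 CPM in females (42.2 to 174), and the granulocyte precursor list 299 CPM (75.5 to 1438) and 383 CPM (96.6 to 1732). The dendritic list had 30.2 CPM (14.7 to 126) in males and 26.99 CPM (15.4 to 109) in females. The part of these markers in the sex difference was not tested.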

How the data were processed

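RNA of 146 macrophage cultures was sequenced from poly-A selected libraries of a TruSeq kit, 6 to a lane. Per the submitters' processing notes, FastQC, TopHat2 2.0.11, HTSeq 0.6.1, DESeq2 and the build GRCm38 (mm10) were used; the strand setting and annotation release are not given in the sources used here, so overlapping and antisense genes cannot be told apart. The authors deposited raw counts per gene for 22721 genes and log2 values from a variance-stabilising transformation for 10893 genes, each of which had at least 5 counts in every library. Identifiers were named with GENCODE M21, which matched 21822 of them.

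Library totals of the count table gave CPM, and exonic lengths of GENCODE M21 the level per length. Sex, plate and date were tested on the counts with edgeR 4.0.16 in R 4.3.3 (quasi-likelihood test, TMM, filterByExpr, 12060 genes, Benjamini-Hochberg adjusted p under 0.05). The sex fit and the regression were tested on simulated data. Pairs of members used Spearman's rho and Pearson's r of the deposited log2 values with plate and sex removed, and a two-sided permutation test with 100000 resamples within plate. Regression on Hspa5, Xbp1, Syvn1 and Sec61a1 used limma 3.58.1. Alternatives included DESeq2 1.42.0, limma voom, other covariates and leaving out plates or the 6 libraries against their label. Removing log2 depth from the pairs, the date test without those 6 libraries and the test of sex by plate were chosen after seeing the data. Date labels come in 2 written forms and were used as names, with no order. The labels name no culture or litter, and replicate numbers were given in accession order; p-values measure the spread between mice, and mice of a date may not be independent.

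The members and lists were chosen with earlier results of these data known. All members are named. Beside them the naming rule takes the 10 genes with the highest and 5 with the lowest rho with Hspa5, the 5 with the highest for each of the other 3, the 5 highest and 3 lowest pairs, the highest pair in each role, and up to 4 genes of each other list by p; gene models without a proper symbol are skipped. Of the genes the rule takes for Hspa5, 1 is not reported here. Any pair or date label named outside the rule was picked with its values in view. A gene is called uncertain where 20% or more of its 50-mers occur in another gene; no member reached that, Sec61b being highest at 17.4%.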

Additional observations from a re-analysis of the deposited data

Results flagged for a closer look

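Single libraries were examined for Hspa5, Herpud1 and Xbp1 within date labels of 4 to 10 libraries and within plate 1, which made 51 groups, and chance marks about 1 in 20 groups. In 3 groups 1 library stood apart from the rest by Dixon's test. Under the date label 2010-04-11 the library male 30 had 2093 CPM of Hspa5, against 1271 to 1474 CPM in the other 4 libraries. The same library had 35.97 CPM of Herpud1, against 17.9 to 22.6 CPM in the other 4. On plate 1 the library female 19 had 212 CPM of Xbp1, against 161 to 179 CPM in the other 5.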

How the results depend on the processing

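No paired analysis was possible because the replicate numbers were given in accession order and pair no mice. The count of members lower in males was 7 to 12 with other size factors, without the count filter, with date or lane or no plate in the model, with limma voom and with DESeq2, and 17 without the libraries against their label. Without plate 1, 3, 4, 7 or 8 it was 5, 4, 1, 3 and 3; without plate 2 or 10 it was 6 and 11. Of all genes, 605 passed for sex, against 944 with lane within plate, 926 without the libraries against their label, and 354, 227 and 296 without plate 3, 4 and 7. No member changed direction in a called sex difference. Member counts for plate and date stayed within 1.5 times of the main value, as did the member pairs over a rho of 0.5, at 163 to 226. Pairs under -0.5, 21 in the report, were 12 to 38 on single plates and 0 with the first principal component removed. Shares over all pairs of VST genes were not computed for the alternatives. Over the alternatives 5 to 14 translocon and 1 to 7 degradation pairs were over 0.5, in place of 6 and 2. With the first principal component as covariate, 1274 genes passed for Hspa5 in place of 6577; S100a9 (0.291) and Flt3 (0.265) turned positive, and with it removed the median rho with the core turned to 0.156 for Sil1, 0.367 for Dnajb9 and 0.256 for Atf6. The cause was not tested.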
